A study of Mus musculus with 12 samples.

Results

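Dnmt1 KD was compared with EGFP KD in E14 cells, a mouse embryonic stem (ES) cell line, on 4 of the 12 one-colour arrays of the study. Cells grown on gelatin without feeders, in medium with serum and LIF, were transfected with esiRNAs (short RNAs cut from a long double strand) and collected 48 hr later. The 2 arrays labelled Dnmt1 KD had esiRNAs against Dnmt1, and the 2 labelled EGFP KD had esiRNAs against EGFP as the control, so both groups went through the same transfection. The KD is transient and partial, and each array read the RNA of a whole culture, in which fewer cells of a type and less RNA per cell cannot be told apart. The other 8 arrays, 2 for each KD of Chd4, Mbd2, Mbd3 or Tet1, were used for the spread between replicates and for a pair of comparisons without the control. The study's methods call the replicates biological, but the labels do not name separate cultures, so p-values measure only the spread between these arrays.

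Dnmt1 is the maintenance DNA methyltransferase: it copies 5-methylcytosine at CG dinucleotides onto the new strand after replication, with Uhrf1 as its guide to hemimethylated sites. Dnmt3a and Dnmt3b, helped by Dnmt3l, place new marks, while the Tet enzymes oxidise them and the methyl-CpG-binding domain proteins read them. In ES cells and early embryos, DNA methylation at promoters is best known for keeping germline genes silent and for marking the parental copies of imprinted genes. The arrays measured mRNA and not methylation.

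Promoters are shown first because CG content sets where methylation can act. The sequences below are 300-base windows around the annotated start from RefSeq on build GRCm38.p6, 5′ to 3′ on the gene's strand, with CG in capitals. The first is that of Wfdc15a (chr2:164200068-164200367, minus strand), the one member of a list of methylation-silenced germline genes that was at least 1.5-fold above the control on both arrays. It is followed by the first genes with an available window among those furthest above the control, Olfr715b (chr7:107106810-107107109, minus strand), Rbp4 (chr19:38125272-38125571, minus strand) and Tmem114 (chr16:8425087-8425386, minus strand).
Wfdc15a: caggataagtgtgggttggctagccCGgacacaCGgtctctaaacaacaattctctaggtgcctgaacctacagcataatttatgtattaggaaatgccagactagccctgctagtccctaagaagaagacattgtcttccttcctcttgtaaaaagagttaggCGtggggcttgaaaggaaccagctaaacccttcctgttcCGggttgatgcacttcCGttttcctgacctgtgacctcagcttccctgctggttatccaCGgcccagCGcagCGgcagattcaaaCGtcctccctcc
Olfr715b: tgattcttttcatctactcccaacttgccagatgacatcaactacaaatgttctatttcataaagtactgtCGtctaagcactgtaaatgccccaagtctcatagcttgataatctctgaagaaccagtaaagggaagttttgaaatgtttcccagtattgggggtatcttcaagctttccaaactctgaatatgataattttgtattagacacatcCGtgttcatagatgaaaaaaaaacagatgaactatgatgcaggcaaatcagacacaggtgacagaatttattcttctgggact
Rbp4: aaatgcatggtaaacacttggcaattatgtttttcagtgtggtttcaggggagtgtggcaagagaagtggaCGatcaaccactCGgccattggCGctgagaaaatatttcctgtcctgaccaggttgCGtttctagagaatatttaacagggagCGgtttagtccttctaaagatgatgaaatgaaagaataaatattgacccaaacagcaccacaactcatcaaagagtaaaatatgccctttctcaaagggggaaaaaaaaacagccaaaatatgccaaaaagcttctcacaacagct
Tmem114: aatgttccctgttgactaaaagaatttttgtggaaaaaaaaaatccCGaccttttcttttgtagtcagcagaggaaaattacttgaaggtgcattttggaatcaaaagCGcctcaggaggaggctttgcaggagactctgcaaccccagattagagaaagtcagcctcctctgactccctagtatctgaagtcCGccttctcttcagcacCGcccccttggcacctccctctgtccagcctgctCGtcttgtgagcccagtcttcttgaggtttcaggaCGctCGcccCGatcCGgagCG
These windows held 9, 2, 5 and 10 CG in the order shown. Among all windows in the RefSeq table, 46.2% held at least as many as Wfdc15a and 85.4% at least as many as Olfr715b, so none of them stood at the CG-rich end.

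A further 3 windows, chosen after the values of their genes were seen, belong to X-linked multicopy genes that were higher on both Dnmt1 KD arrays. They are Rhox4g (chrX:37651278-37651577, minus strand), Fthl17e (chrX:9033236-9033535, plus strand) and Xlr5b (chrX:73148591-73148890, plus strand).
Rhox4g: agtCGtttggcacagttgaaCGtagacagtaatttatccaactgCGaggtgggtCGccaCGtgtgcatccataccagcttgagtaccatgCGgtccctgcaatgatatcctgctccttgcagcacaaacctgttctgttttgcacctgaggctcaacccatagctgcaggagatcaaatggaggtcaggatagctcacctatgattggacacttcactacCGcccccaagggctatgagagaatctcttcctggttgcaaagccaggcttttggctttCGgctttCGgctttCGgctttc
Fthl17e: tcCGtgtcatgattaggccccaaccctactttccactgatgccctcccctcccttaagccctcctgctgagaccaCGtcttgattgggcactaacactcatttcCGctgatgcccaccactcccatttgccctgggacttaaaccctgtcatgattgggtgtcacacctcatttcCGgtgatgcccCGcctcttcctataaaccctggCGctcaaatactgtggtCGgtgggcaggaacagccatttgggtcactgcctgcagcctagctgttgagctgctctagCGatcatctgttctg
Xlr5b: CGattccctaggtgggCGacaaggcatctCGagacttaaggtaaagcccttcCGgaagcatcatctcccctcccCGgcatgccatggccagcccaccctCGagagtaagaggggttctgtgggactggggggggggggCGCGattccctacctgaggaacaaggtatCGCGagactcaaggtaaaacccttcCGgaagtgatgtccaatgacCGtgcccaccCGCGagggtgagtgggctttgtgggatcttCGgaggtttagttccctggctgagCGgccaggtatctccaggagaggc
These held 10, 8 and 16 CG, and 33.5% of all windows held at least as many as that of Xlr5b.

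All levels below are log2 of the background-corrected signal relative to the array's 75th percentile, with a floor at -4.86 below which signals were not ordered. Of 29839 genes tested, 19390 had a symbol. Between 80.9% and 91.6% of probes were well above background on the 4 arrays. The arrays lay on 3 slides. Dnmt1 KD replicate 1 shared a slide with EGFP KD replicate 1, EGFP KD replicate 2 lay on a second, and Dnmt1 KD replicate 2 lay on the third, which held no control. The ES cell markers Pou5f1, Zfp42 and Esrrb were saturated on all 4 arrays. Sox2 was at 2.41 and 2.32 on the EGFP KD arrays and at 2.40 and 2.23 on the Dnmt1 KD arrays. The Nanog probe read close to the floor, between -4.86 and -4.09, in both groups.

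The first question was whether the KD lowered its target. Dnmt1 mRNA, read by probe A_51_P195573, was at 1.06 and 1.13 on the EGFP KD arrays and at -0.54 and -1.24 on the Dnmt1 KD arrays. Both Dnmt1 KD arrays lay below all of the other 10 arrays, which ranged from 0.18 to 1.15. Mean levels were 1.1 ± 0.05 (SD, n = 2) for EGFP KD and -0.89 ± 0.50 (SD, n = 2) for Dnmt1 KD. This is a log2 fold change of -1.99 (SE 0.39), which leaves 0.252 of the control signal, with a limma adjusted p of 0.37 over all genes. Dnmt1 had the largest downward separation between the groups of the genes with a symbol that were detected and not saturated on all 4 arrays, with its smallest difference between a Dnmt1 KD and an EGFP KD array at -1.59. The difference thus ran the way of the label on both arrays and did not pass the test across all genes.

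No other DNA methylation gene was separated from the control by 1.5-fold on all differences. Of 25 listed genes tested, 0 were called at an adjusted p under 0.05, and the background over all genes was also 0% (0 of 29839). Their median log2 fold change was -0.05, against -0.01 over all genes. The de novo enzyme Dnmt3b was at 4.65 and 4.71 in EGFP KD and at 4.68 and 4.65 in Dnmt1 KD. Uhrf1 was at 5.10 and 4.95 against 5.11 and 4.53. Dnmt3a was at -1.61 and -1.55 in EGFP KD and at -1.26 and -1.38 in Dnmt1 KD. The groups overlapped for Dnmt3b and Uhrf1, and did not overlap for Dnmt3a, whose log2 fold change was 0.26 (SE 0.11, limma unadjusted p = 0.044 and adjusted p = 0.94).

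Among the erasers, Tet1 was at 2.13 and 2.00 in EGFP KD and at 1.47 and 1.19 in Dnmt1 KD. Its log2 fold change was -0.74 with an SE of 0.65 (limma adjusted p = 0.94), so the SE was nearly as large as the difference. That SE takes in the library labelled Tet1 KD replicate 1, where Tet1 was at 2.05, and the library labelled Mbd2 KD replicate 1, where it was at 0.28, so that both go against their labels for Tet1. Mbd2 was at -0.97 in the former and at -0.85 in the latter, against -0.72 and -0.83 in EGFP KD. In Mbd2 KD replicate 2 it was at -0.84, so on this probe both arrays labelled Mbd2 KD were close to the control. The lowest Mbd2 value, -1.38, was in Tet1 KD replicate 2. The labels were kept as given, and all of these libraries enter the spread used in the tests here. A second Tet1 probe was lower by -0.43. Tet3 had 0.16 on one Dnmt1 KD array and -0.97 on the other, against 0.13 and 0.36 in the control, and the groups overlapped. Its dimmer probes changed by -0.20 and -0.01. The readers Mbd3 (4.32 and 4.49 in EGFP KD, 4.15 and 4.39 in Dnmt1 KD) and Mbd2 (-0.72 and -0.83 in EGFP KD, -0.56 and -0.38 in Dnmt1 KD) differed from the control by -0.13 and 0.30 in log2 fold change, and neither passed the test. A second Mbd3 probe was lower by -0.34, and a second Mbd2 probe went the other way by -0.09.

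**Figure D1:**
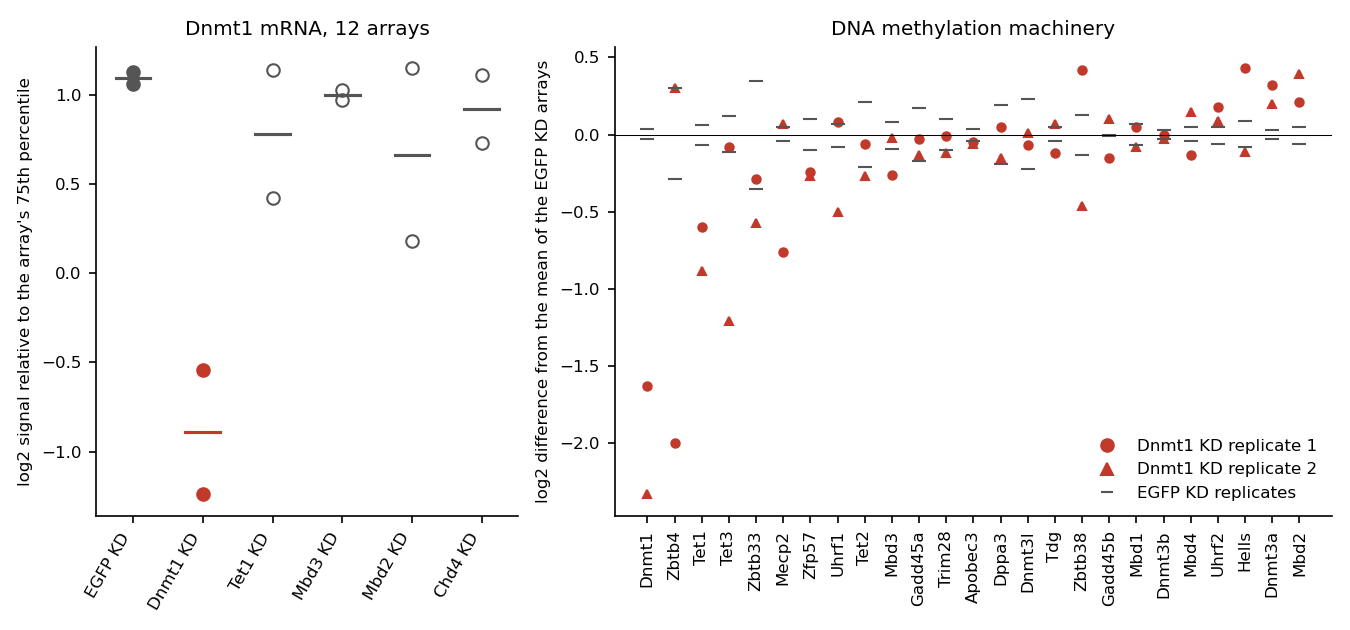
Left, log2 signal of Dnmt1 relative to the array's 75th percentile on each of the 12 arrays, with a bar at each group's mean; the 2 Dnmt1 KD arrays, at -0.54 and -1.24, are below all others. Right, each Dnmt1 KD array as a log2 difference from the mean of the EGFP KD arrays for the 25 DNA methylation genes, with the EGFP KD replicates as dashes; Dnmt1 has the largest difference, and Zbtb4 the largest gap between the replicates.

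The second question was which genes moved alike on both Dnmt1 KD arrays. By the test across all genes, 0 of 29839 genes (0%) differed from EGFP KD at a limma adjusted p under 0.05, and the smallest adjusted p was 0.091. At an unadjusted p under 0.05, 1012 genes were higher (3.39%) and 403 were lower (1.35%), together 4.74%. The 2 Dnmt1 KD arrays differed from each other by a median of 0.425 on the log2 scale, and the 2 EGFP KD arrays by 0.288. Across genes, the difference of Dnmt1 KD replicate 1 from EGFP KD replicate 1 and that of Dnmt1 KD replicate 2 from EGFP KD replicate 2 had a Pearson's r of -0.03, which is given as a description because genes are not independent replicates. With the EGFP KD arrays exchanged between the pairs, r was -0.39.

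A gene was counted as separated when all 4 differences between a Dnmt1 KD and an EGFP KD array had one sign and were at least 1.5-fold. By this count, which is not a test, 238 genes were higher (0.798% of all) and 56 were lower (0.188%). The separated genes were dim: their median level in EGFP KD was -3.36 for the higher genes and -2.73 for the lower, against -1.84 over all genes. Windows of the kind shown above held a median of 11 CG for 136 of the separated higher genes and 3 CG for 24 of the lower genes, against 15 over 15385 tested genes. Leaving out one array of the 4 raised the count to between 670 and 2811 higher genes and to between 233 and 3530 lower genes, so the joint condition over the arrays sets its size.

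**Figure D2:**
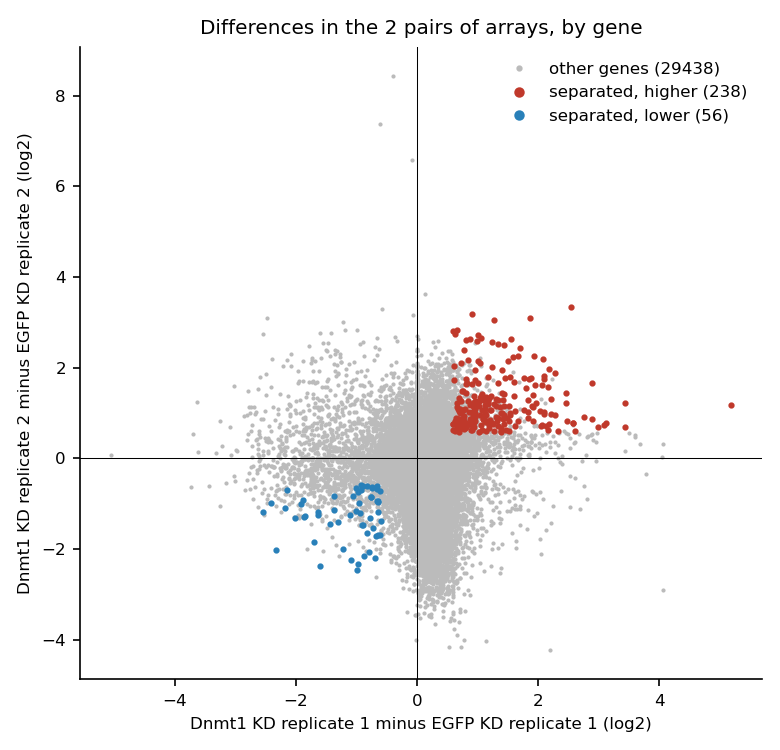
Each point is a gene, with its log2 difference in the pair of replicate 1 arrays on the x axis and in the pair of replicate 2 arrays on the y axis. The 238 separated higher genes (red) and 56 separated lower genes (blue) lie in the 2 quadrants of like sign, while most genes scatter around 0 with no shared direction.

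The 14 genes shown furthest above the control, ranked by the smallest of the 4 differences, included receptor genes, immune genes and a pair of retinoid carriers. Olfr715b, an olfactory receptor gene, was at -4.86 and -4.76 in EGFP KD and at -3.00 and -1.65 in Dnmt1 KD. Rbp4, which carries retinol in blood, was at -1.72 and -1.74 in EGFP KD and at -0.30 on both Dnmt1 KD arrays. Crabp1, which binds retinoic acid inside cells, was at -1.29 and -1.21 in EGFP KD and at 0.09 and -0.07 in Dnmt1 KD. In each of these 3 genes both Dnmt1 KD arrays were above both control arrays, by the way the genes were ranked. The gap between the groups was larger than the difference between replicates, which the ranking favours.

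Their log2 fold changes were 2.48 for Olfr715b (SE 0.69), 1.43 for Rbp4 (SE 0.28) and 1.26 for Crabp1 (SE 0.22), with limma adjusted p-values of 0.64, 0.35 and 0.31. Trim40, of the TRIM family of ubiquitin ligases, was at -4.41 and -4.21 in EGFP KD and at -2.85 and -1.58 in Dnmt1 KD. Klra16, a member of the Ly49 family of natural killer cell receptors, was at -2.60 and -2.35 against -1.09 and -0.20. Grin2c, an NMDA receptor subunit, was at -4.02 and -4.07 against -2.69 and -2.79. The other genes of the 14 were Tmem114, Vmn1r73, Efhc2, Fat3, D17H6S53E, Nsun7, H2-K2 and Rftn1. Nsun7 had a second probe, which went the other way by -0.84. Olfactory and vomeronasal receptors made up 13 of the 238 separated higher genes, which is 7.93% of those with a symbol, against 5.53% of all tested genes with a symbol, and signal from near-identical copies cannot be assigned with certainty.

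Fam43b had the lowest adjusted p of all genes. It was at -4.02 and -3.83 in EGFP KD and at -2.70 and -2.51 in Dnmt1 KD, with no overlap and a spread between replicates of about the same size in each group. The log2 fold change was 1.32 (SE 0.10, limma adjusted p = 0.091), which missed the threshold.

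Beside Dnmt1 itself, the 15 genes that lay furthest below the control included a chromatin remodeller, a pair of muscle myosins and a metabolic enzyme. Baz1a, the Acf1 subunit of ISWI chromatin remodellers, was at 0.09 and 0.23 in EGFP KD and at -1.77 and -1.04 in Dnmt1 KD. All 3 of its probes were lower on average, by -1.56, -0.96 and -0.11. The skeletal muscle myosin heavy chains Myh8 (-2.13 and -2.06 in EGFP KD, -3.14 and -3.22 in Dnmt1 KD) and Myh4 (-2.79 and -2.70 in EGFP KD, -3.56 and -4.02 in Dnmt1 KD) were both below the control. They are close paralogs in one cluster, so one transcript can feed both probes.

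Tigar, a p53 target that degrades fructose-2,6-bisphosphate, was at -0.29 and -0.16 in EGFP KD and at -1.04 and -1.01 in Dnmt1 KD, and its second probe was lower by -1.03. Baz1a and Tigar did not overlap between the groups on the probe shown, by the way the genes were ranked. The log2 fold changes were -1.56 for Baz1a (SE 0.28), -1.08 for Myh8 (SE 0.19), -1.04 for Myh4 (SE 0.21) and -0.81 for Tigar (SE 0.27), and their limma adjusted p-values lay between 0.31 and 0.84. The remaining genes were Apoh, Inka1, Krt36, Nkain4, Ccn4, Cacng8, Enpp4, Kcnj16, Sdccag8 and Meikin, with log2 fold changes from -2.18 (Cacng8) to -0.81 (Nkain4 and Enpp4) and limma adjusted p-values of 0.34 or above. In Krt36 and Ccn4 a second probe went the other way, by 0.37 and 0.30. Some falls were shared: for Nkain4, Enpp4, Ccn4 and Meikin, all 8 arrays of the other KDs were below both EGFP KD arrays. Nkain4 was at -2.36 and -2.12 in Mbd3 KD, below its -1.61 and -1.67 in Dnmt1 KD. For Myh8 and Myh4, 6 of these 8 arrays were above both EGFP KD arrays, and for Baz1a 5. Of the 15 genes, Dnmt1 included, 8 had both Dnmt1 KD arrays below both Mbd3 KD arrays.

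**Figure D3:**
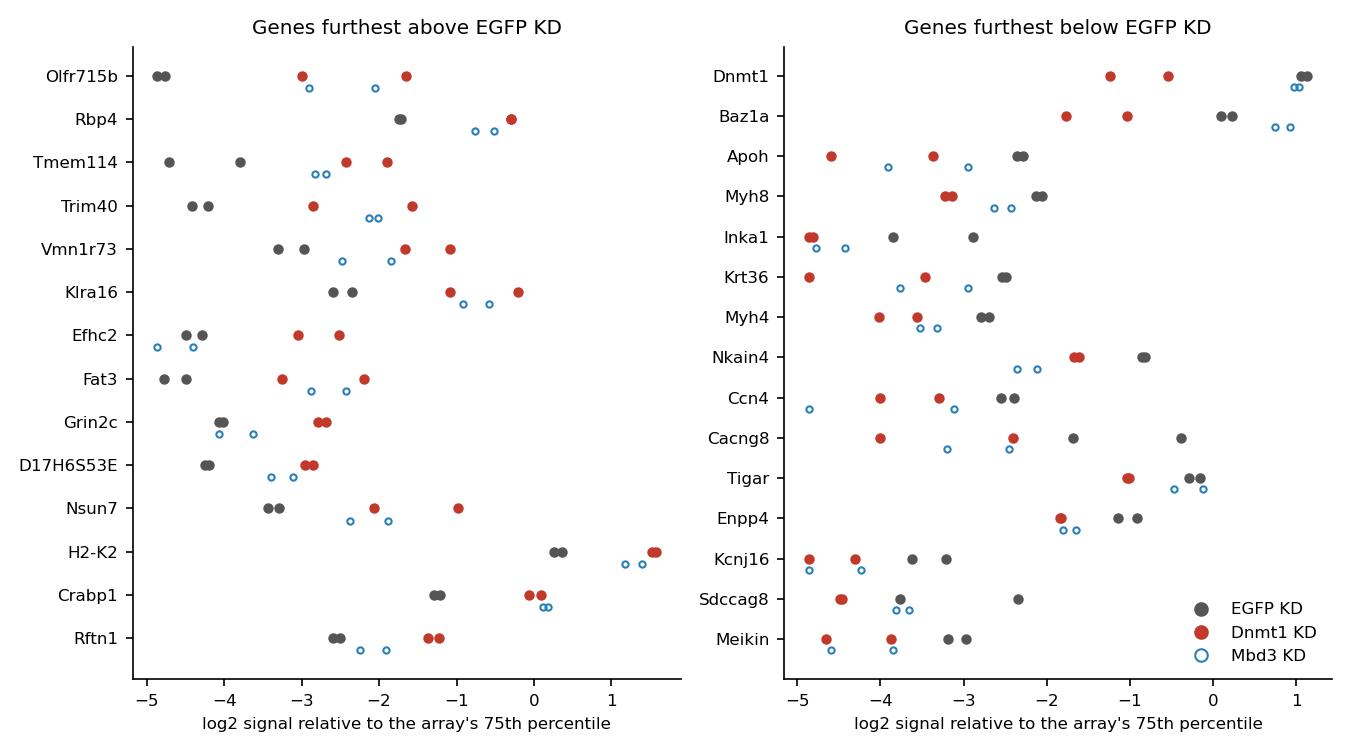
Log2 signal on each EGFP KD array (grey), Dnmt1 KD array (red) and, just below, Mbd3 KD array (open blue) for the 14 genes furthest above and the 15 furthest below EGFP KD. Grey and red do not overlap in any gene, by the way the genes were chosen. Both blue points lie above both grey points in 12 of the 14 genes furthest above EGFP KD, and near red in several, such as Trim40 and Klra16.

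Some genes were detected in one group and not the other. Out of the 29839 genes tested, 33 were well above background on both Dnmt1 KD arrays and on neither EGFP KD array, and 65 the other way. Car8, a carbonic anhydrase-related protein, was at least 3.65-fold higher in Dnmt1 KD, at -3.86 and -2.13, and Olfr623 was at least 3.27-fold higher, at -4.06 and -2.25. Xlr5b, of an X-linked lymphocyte-regulated family, was at least 2.21-fold higher, at -3.64 and -3.80. Adgrg6, an adhesion G protein-coupled receptor, was at least 1.99-fold higher, and Ust, a sulfotransferase, at least 1.46-fold. A second Car8 probe was at the floor on all 4 arrays. In Mbd3 KD, Car8 was at -3.61 and -2.57 and Olfr623 at -3.75 and -2.70. In the other direction Abca6, a lipid transporter, was at least 2.14-fold lower, but its EGFP KD arrays were themselves at -4.75 and -2.77. Hoxb2, Glycam1, Syt16 and Olfr101 were above the floor on EGFP KD replicate 1 alone and had no difference on the other control array.

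The X chromosome stood out among the separated genes, a pattern noticed after the values were seen and given here as a description with no test. Of 164 separated higher genes with a symbol, 22 lay on the X chromosome (13.4%), where 745 of the 19390 tested genes lay (3.84%). Put the other way, 2.95% of the X-linked genes were separated upward, and the autosomes ranged from 0.332% to 1.45%, with chromosome 17 the highest. None of the separated lower genes with a symbol (0 of 36) was X-linked. The X chromosome as a whole did not shift: its median log2 fold change was 0. E14 is a male line per the study's methods.

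Several of these X-linked genes belong to families known from the germline. Rhox4g, a homeobox gene of the reproductive cluster, was at -3.98 and -3.72 in EGFP KD and at -2.43 and -2.72 in Dnmt1 KD. Fthl17e, a ferritin heavy chain-like gene of germ cells, was at 0.10 and 0.12 against 1.40 and 1.04. Magea3, of a family of cancer-testis antigens, was at the floor on both EGFP KD arrays and at -3.80 and -3.50 in Dnmt1 KD. In all of these both Dnmt1 KD arrays lay above both control arrays, by the way the genes were chosen.

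Their neighbours in the same families ran alike: Rhox4a was at -3.74 and -3.63 against -2.64 and -2.77, and Fthl17d at 0.08 and -0.10 against 1.07 and 1.15. The log2 fold changes were 1.28 for Rhox4g (SE 0.17), 0.98 for Rhox4a (SE 0.17), 1.11 for Fthl17e (SE 0.21) and 1.12 for Fthl17d (SE 0.19), with limma adjusted p-values between 0.24 and 0.34. The Rhox4 and the Fthl17 genes are multicopy, so a probe may read several copies, and the pairs are not independent. Ctag2l2, a cancer-testis antigen-like gene, the histone H2A-like gene H2al1m of the testis and 1700013H16Rik were also separated.

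Not every member of these families was higher. Over all genes, 0.798% were separated upward, and these families were chosen after their values were seen. Of 19 Rhox genes tested, 2 were separated upward (10.5%) and 0 downward, with a median log2 fold change of 0.08 and a range from -1.0 to 1.28. Rhox5 was saturated on all 4 arrays. Of 17 Mage genes, 1 was separated upward (5.88%) and the median was -0.07. Of 12 Xlr and Slx genes it was 1 (8.33%), with a median of 0.31, and of 4 Fthl17 genes it was 2 (50%), with a median of 0.96.

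The other X-linked genes had varied roles. Il2rg, the gamma chain shared by several interleukin receptors, was at -3.10 and -3.17 in EGFP KD and at -2.16 and -2.11 in Dnmt1 KD. Tsx, a gene next to the X inactivation centre, was at -3.42 and -3.17 against -2.03 and -2.16. Nudt11, a diphosphoinositol phosphatase gene, was at -1.73 and -1.68 against -0.87 and -0.65. Like all separated genes these had no overlap, by the way they were chosen, and their limma adjusted p-values were 0.21, 0.22 and 0.24. Nudt10, Tsc22d3, Gab3, Chst7, Efhc2, Satl1, Tlr8, Gpr143, Zxdb and F630028O10Rik made up the rest, of which Tlr8 did not reach an unadjusted p of 0.05.

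Of the 22 genes, 18 were well above background on all 4 arrays. The 20 with an available promoter window had a median of 8.5 CG, and all tested X-linked genes 10. The share on the X chromosome was between 9.4% and 14.8% under other normalizations, filters and probe rules. It was 7.04% among genes higher at an unadjusted p under 0.05. Leaving out any one of the 4 arrays gave between 5.84% and 7.17%. The share was closer to the 3.84% of all tested genes on the same-slide pair alone (5.47%), at an unadjusted p under 0.05 with slide as a fixed block (6.01%) and for differences of any size (5.12%).

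**Figure D4:**
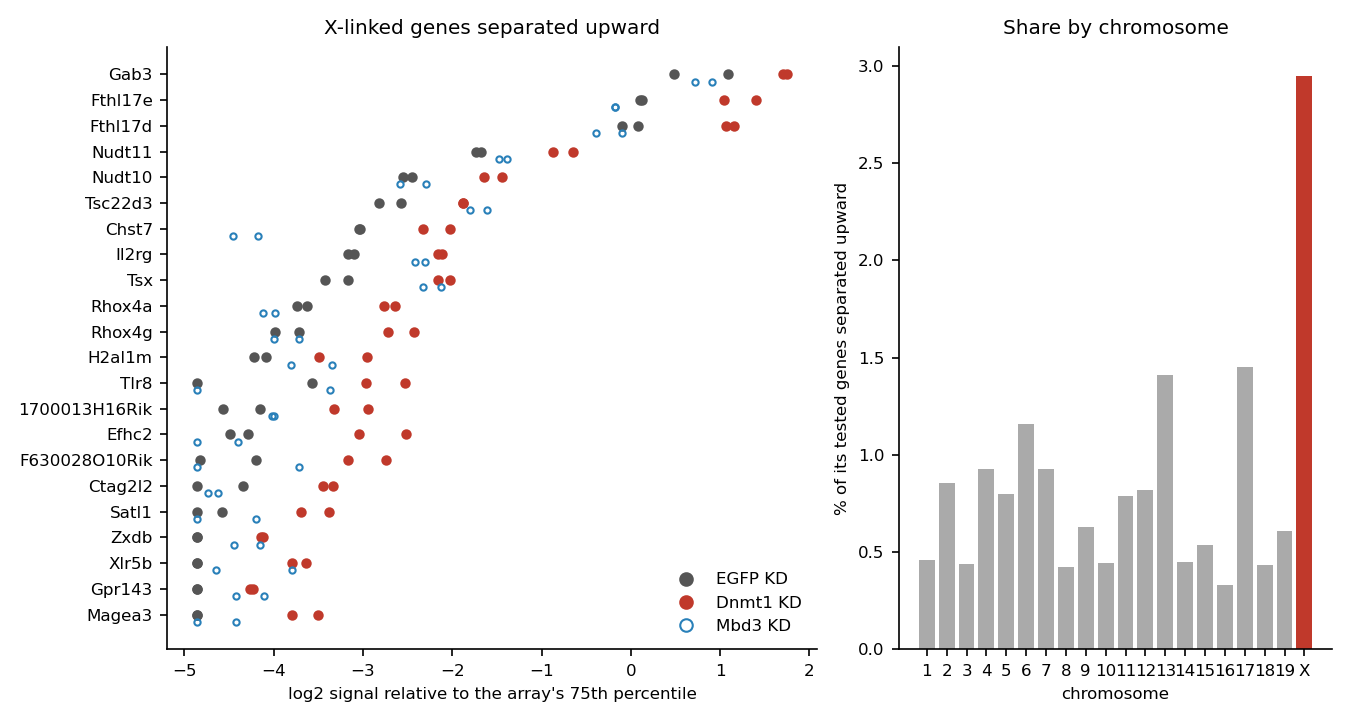
Left, log2 signal on each EGFP KD (grey), Dnmt1 KD (red) and Mbd3 KD (open blue) array for the 22 X-linked genes separated upward; red is above grey in every gene, by the way they were chosen, and blue varies. Right, the percentage of each chromosome's tested genes separated upward; the X chromosome has 2.95%, and the highest autosome, chromosome 17, has 1.45%.

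Chromosome 17 carries the major histocompatibility complex (MHC), and class I genes, which present peptides to T cells, were among the separated genes. H2-K2 was at 0.26 and 0.36 in EGFP KD and at 1.57 and 1.52 in Dnmt1 KD. H2-K1 was at 1.33 and 1.13 against 2.44 and 2.05, and H2-Q7 at -0.34 and -0.56 against 0.63 and 0.43. Both Dnmt1 KD arrays were above both controls in each, as in every gene counted as separated upward. Log2 fold changes were 1.24 (SE 0.13), 1.02 (SE 0.22) and 0.98 (SE 0.23), with limma adjusted p-values of 0.21, 0.44 and 0.48.

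The 21 class I genes tested had a median log2 fold change of 0.64, and 12 of them did not overlap between the groups upward and 0 downward, where 10.9% of all genes did not overlap upward and 9.99% downward. Their sequences are alike, so cross-hybridisation can link their probes, and this family too was chosen after its values were seen. B2m, the light chain of class I molecules, was at -0.23 and -0.62 in EGFP KD and at 0.10 and 0.19 in Dnmt1 KD. H2-DMb1, a class II chaperone subunit, was at -2.43 and -2.49 against -0.99 and -1.34.

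For 15 lists of genes, 0 members were called in any list, so each list is described by its counts and median. Members are counted where the groups did not overlap, which over all genes held for 10.9% upward and 9.99% downward. Of 46 methylation-silenced germline genes tested, 14 lay above the control with no overlap (30.4%) and 4 below (8.7%), 1 was separated upward by 1.5-fold, and the median log2 fold change was 0.08. That one gene, Wfdc15a, was at -2.29 and -2.30 in EGFP KD and at -1.63 and -1.60 in Dnmt1 KD, a tight difference of 0.68 (SE 0.10, limma adjusted p = 0.27). Sycp1, of the synaptonemal complex, was at -4.19 and -4.35 against -3.54 and -3.72, and Xlr4a at -3.84 and -3.57 against -3.14 and -2.96. In contrast Dazl, a germ cell RNA-binding protein gene, was at -2.42 and -2.47 against -2.37 and -2.32. Ddx4, a germ cell helicase gene, was at -2.19 and -2.40 in EGFP KD and at -3.05 and -2.68 in Dnmt1 KD. Germline genes thus lay on both sides of the control. Not all of the list was silent in EGFP KD: Zfp42 and Rhox5 were saturated on all 4 arrays, Rpl10l was at 4.24 and 4.40, and Tuba3a was at 2.89 and 3.03.

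Of 24 tested imprinted genes expressed from the paternal copy, 3 lay above the control with no overlap (12.5%, near the 10.9% over all genes) and 1 below (4.17%). Of 20 expressed from the maternal copy, 4 lay above (20%) and 1 below (5%). Dlk1, a paternally expressed Notch ligand-like gene, was at -0.79 and -0.80 in EGFP KD and at -0.30 and 0.11 in Dnmt1 KD, and Ndn at -1.86 and -1.94 against -1.40 and -1.43. Both were apart from the control, with log2 fold changes of 0.70 (SE 0.14) and 0.48 (SE 0.10), under 1.5-fold on at least one difference. Igf2 was at -2.88 and -2.23 in EGFP KD and at -2.47 and -4.86 in Dnmt1 KD, so that its replicates disagreed.

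Among the stress genes whose groups did not overlap, most lay above the control, by small amounts. Of 21 Atf4 stress genes, 8 lay above with no overlap (38.1%, against 10.9% over all genes) and 1 below (4.76%), with a median of 0.12. Of 25 p53 targets, 8 lay above (32%) and 2 below (8%), with a median of 0.16. Nupr1, a stress-induced chromatin protein gene, was at 1.58 and 1.51 in EGFP KD and at 2.30 and 2.23 in Dnmt1 KD, and was the one Atf4 list member separated by 1.5-fold. It was also above both EGFP KD arrays on all 8 arrays of the other KDs, which ranged from 1.95 to 2.64. Ddit3, the Chop transcription factor, was at -0.41 and -0.58 against 0.30 and 0.15. Gdf15, a stress cytokine, was at -0.66 and -0.50 against 0.47 and 0.02. Their log2 fold changes were 0.72 (SE 0.16), 0.72 (SE 0.12) and 0.82 (SE 0.18), with limma adjusted p-values of 0.44, 0.29 and 0.44. The p53 target Cdkn1a, a cell cycle inhibitor, was at -0.14 and -0.43 against 0.19 and 0.04.

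Of 24 DNA replication genes, 6 lay below with no overlap (25%, against 9.99% over all genes) and 0 above, with a median of -0.07 and a lowest log2 fold change of -0.42. Mcm2, a subunit of the replicative helicase, was at 4.07 and 3.90 in EGFP KD and at 3.80 and 3.77 in Dnmt1 KD. Of 16 genes of the 2-cell stage, 7 lay below (43.8%) and 0 above, with a median of -0.32 and a range from -0.90 (Zfp352) to 0.94 (Tdpoz1), both with overlapping groups. Zscan4f was at 1.26 and 1.37 against 0.54 and 0.95, and Zscan4c at 0.38 and 0.39 against -0.41 and 0.10. These are near-identical paralogs, and their SEs (0.49 and 0.40) were close to the differences (-0.57 and -0.54). From Mbd3 KD, the replication and 2-cell lists differed by medians of 0.1 and 0.2 on the log2 scale, with 0 members called.

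Lineage and pluripotency lists had medians between -0.12 and 0.14. Of 29 pluripotency genes, 3 lay above (10.3%) and 2 below (6.9%) with no overlap, and none was separated by 1.5-fold. Of 19 primitive endoderm genes, 6 lay above (31.6%) and 2, Cubn and Sox7, below (10.5%). The list's summed linear signal was 93.3 and 96.5 in EGFP KD and 112 and 83.1 in Dnmt1 KD. The primitive endoderm factor Gata4 was at -3.33 and -3.30 in EGFP KD and at -2.28 and -1.19 in Dnmt1 KD, and Serpinh1, a collagen chaperone, at -0.56 and -0.45 against 0.07 and 0.12. Gata4 was separated, its replicates were about 1 log2 unit apart, and all 8 arrays of the other KDs, from -2.64 to -1.77, were above EGFP KD too. Gata3, of the trophectoderm list, was at -3.88 and -4.12 in EGFP KD and at the floor on both Dnmt1 KD arrays. Of 23 interferon-stimulated genes, 5 lay above (21.7%) and 1 below (4.35%), with a median of 0. The neural list gave 0 genes above and 2 below of 18, the epiblast list 2 above and 3 below of 20, and the trophectoderm list 3 above and 1 below of 20.

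Fibroblast genes, listed as markers of feeder cells, had 4 of 15 above the control with no overlap (26.7%, against 10.9% over all genes), 0 below and a median of -0.03. Twist1 was at -4.86 and -4.59 in EGFP KD and at -3.61 and -3.84 in Dnmt1 KD, and Thy1 at 1.69 and 1.80 against 2.36 and 2.48. The summed linear signal of the list was 7.08 and 8.77 in EGFP KD and 9.38 and 10.3 in Dnmt1 KD. Thy1 alone makes up a large part of this sum, so the sum does not stand for the other members. Log2 fold changes in the list ran from -1.22 to 1. Col1a1 was at or below -4.13 and Fbn1 at the floor in both groups. The part of other cells in the results was not tested.

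**Figure D5:**
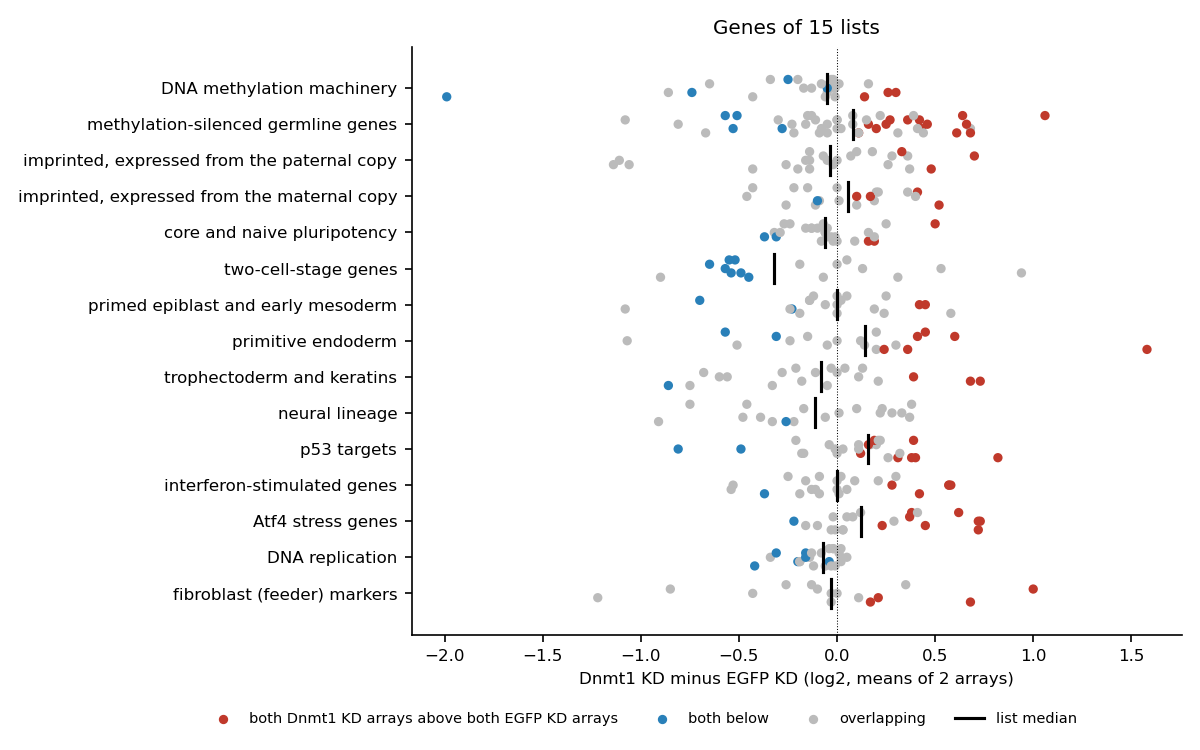
Log2 difference of the Dnmt1 KD mean from the EGFP KD mean for each tested gene of 15 lists, with the list median as a black bar. Red genes have both Dnmt1 KD arrays above both EGFP KD arrays, blue genes both below, and grey genes overlap; the 2-cell-stage, neural and replication lists hold no red gene, and Dnmt1 is the furthest left.

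Dnmt1 KD was then set against Mbd3 KD, whose arrays lay on the same 2 slides, replicate by replicate, with no EGFP KD array in the comparison. Of 29839 genes, 197 differed at a limma adjusted p under 0.05 (0.66%), with 118 higher in Dnmt1 KD (0.395%) and 79 lower (0.265%). Mbd3 itself was at 4.15 and 4.39 in Dnmt1 KD and at 1.33 and 1.56 in Mbd3 KD, a log2 difference of 2.83 (adjusted p = 0.0034). The count rests on the spread of all 6 groups: it was 0 with only the 4 arrays compared, or without the Tet1 KD and Mbd2 KD arrays, and between 21 and 89 when one of the 4 arrays was left out.

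Several of these differences came from the Mbd3 KD side. Wt1, a transcription factor of kidney and gonad, was at -0.46 and -0.90 in Dnmt1 KD and at -4.17 and -4.79 in Mbd3 KD, with EGFP KD at -0.55 and -0.63. Slc38a5, an amino acid transporter, was at -1.36 and -0.99 in Dnmt1 KD, at 1.49 and 1.60 in Mbd3 KD and at -1.37 and -1.13 in EGFP KD. In both the Dnmt1 KD arrays lay with the control. Vrtn followed Wt1 (log2 difference 2.20, limma adjusted p = 0.026), and S100a14, Napsa and Amn followed Slc38a5, with log2 differences of -2.42, -2.38 and -2.32.

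Others were separated from EGFP KD, without passing the test there, and called against Mbd3 KD. Of the 238 separated higher genes, 17 were also called higher than Mbd3 KD, 2 were called lower, and 1 of the 56 lower genes, Baz1a, was called lower. Both counts use the Dnmt1 KD arrays, and so they are not independent. The 16 of the 17 with a symbol included 6 X-linked genes (Rhox4a, Rhox4g, Fthl17d, Fthl17e, Efhc2 and Chst7). Fam43b was at the floor on both Mbd3 KD arrays, a difference of 2.26 (adjusted p = 0.0022). Cox7b2, a testis form of a cytochrome oxidase subunit, was at -3.36 and -3.25 in EGFP KD, at -2.34 and -1.98 in Dnmt1 KD and at -3.99 and -4.50 in Mbd3 KD. Wfdc15a was at -2.67 and -2.46 in Mbd3 KD, below both Dnmt1 KD arrays (log2 difference 0.95, limma adjusted p = 0.019). The aldo-keto reductases Akr1c12 and Akr1c13, H2-DMb1, Cldn3, Slamf9, Rtn4rl1 and 1700018B24Rik completed the set. Of the 101 genes with a symbol called higher than Mbd3 KD, 10 were X-linked (9.9%), and of 74 called lower, 2 (2.7%). Over all tested genes with a symbol, 3.84% were X-linked.

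Levels in the other KDs are set beside those of the genes furthest above EGFP KD. In 12 of the 14 shown, both Mbd3 KD arrays were above both EGFP KD arrays. Each of the 14 had at least 6 of the 8 arrays of the other KDs above both EGFP KD arrays. In Mbd3 KD, Rbp4 was at -0.52 and -0.76, Crabp1 at 0.18 and 0.11, and H2-K2 at 1.39 and 1.17. On the 8 arrays of the other KDs, Trim40 ranged from -2.97 to -2.01 and Tmem114 from -2.95 to -1.56, above both EGFP KD arrays throughout. These genes were chosen for low EGFP KD values, and every KD is set against the same 2 control arrays. For Crabp1 the Mbd3 KD arrays were higher than those of Dnmt1 KD, and the difference of Dnmt1 KD from Mbd3 KD was -0.13 (limma adjusted p = 1.0). Class I MHC genes had a median log2 difference of -0.07 from Mbd3 KD.

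Against the mean of the 4 other KD groups, 5 genes differed at a limma adjusted p under 0.05 (0.0168%), 3 of them higher in Dnmt1 KD (0.0101%), and 0 with slide as a fixed block. Fam43b was higher by 1.72 (adjusted p = 0.0029), and was at -4.86 and -4.77 in Chd4 KD, -3.93 and -3.89 in Tet1 KD and -3.70 and -3.75 in Mbd2 KD. No other array reached the level of the Dnmt1 KD arrays. Cbr3, a carbonyl reductase, and Msln, mesothelin, were higher by 1.40 and 1.31, and Car6, a secreted carbonic anhydrase, and Foxj1, a factor for motile cilia, were lower, with differences of -1.58 and -1.19, with limma adjusted p-values between 0.041 and 0.046. For Cbr3 and Foxj1 the Dnmt1 KD arrays were close to EGFP KD (log2 fold changes of -0.12 and -0.18), so the difference lay in the other groups. Msln and Car6 had log2 fold changes from EGFP KD of 0.46 and -0.55. The 8 arrays of the other KDs ranged from -2.95 to -1.55 for Msln, below both EGFP KD arrays (-1.05 and -1.27). For Car6 they ranged from -3.57 to -1.50, above both EGFP KD arrays (-3.80 and -3.66). Part of these 2 differences thus lay in the other groups too.

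X-linked genes were separated upward in other KDs too. Each KD shares the same controls, so the counts are set side by side. Those of Tet1 KD and Mbd2 KD each rest on a replicate 1 library that goes against its label for Tet1. On both arrays labelled Mbd2 KD, Mbd2 itself was close to its EGFP KD level on the probe used. Separated higher genes with a symbol were X-linked in 1 of 80 for Tet1 KD (1.25%), 19 of 455 for Mbd3 KD (4.18%), 4 of 101 for Mbd2 KD (3.96%) and 62 of 843 for Chd4 KD (7.35%). Fthl17e was at 2.79 and 2.37 in Chd4 KD, above its 1.40 and 1.04 in Dnmt1 KD. Rhox4g was at -2.26 and -2.48, and Wfdc15a at -0.82 and -0.66. In these 3 genes the Chd4 KD arrays were at or above the level of Dnmt1 KD. Of the 22 X-linked genes separated upward in Dnmt1 KD, 10 were also separated upward in Chd4 KD and 3 in Mbd3 KD. The count was 0 in Tet1 KD and 0 in Mbd2 KD.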

How the data were processed

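RNA of E14 mouse ES cells, 48 hr after esiRNA transfection, was hybridised by the authors to one-colour Agilent arrays (12 arrays, 6 groups of 2, 3 slides). Each deposited array file holds spot intensity values from Agilent Feature Extraction 10.7.1.1, with background subtracted. A table of the whole series holds 10 columns of log-scale values for the authors' own comparisons with EGFP KD, and none was used.

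Processed signals were scaled to the 75th percentile of each array, raised to a floor of 0.0344 where lower, and converted to log2. Control spots and outlier spots were left out, spots of a probe were averaged, and a probe was kept if any group had it well above background on each of its arrays, which left 36113 of 39429. The brightest detected probe stood for a gene, and 71.4% of spots had a symbol through their accession in RefSeq. Precision is limited by how few arrays there are. The 6 groups were fitted together by limma 3.58.1 (R 4.3.3), with Benjamini-Hochberg adjustment over all genes and a threshold of 0.05, after a test on simulated data. Figures used matplotlib 3.10.9.

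Named genes were the DNA methylation genes, the 15 furthest above and 15 furthest below EGFP KD, those under an adjusted p of 0.1, separated list members, up to 5 detected in one group alone in each direction, and up to 5 called per comparison and direction. One gene of those furthest above EGFP KD is not reported here. Members and lists were chosen with earlier results of these data known. X-linked genes and families were added after their values were seen. Alternatives were quantile normalization, normexp with an offset of 50, other filters and probe rules, blocks for slide and replicate number, array weights, other sets of arrays and leaving out each array.

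Same-numbered Dnmt1 KD and EGFP KD arrays deviated together from their group means (r = 0.38 across genes), but with 2 pairs and no label for what a number marks, pairing was not assumed.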

Additional observations from a re-analysis of the deposited data

How the results depend on the processing

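Dnmt1 itself was below EGFP KD under all alternatives run, with log2 fold changes from -2.34 to -1.63 and limma adjusted p-values from 0.23 to 1. The count of genes that differed from EGFP KD, 0 in the analysis reported, was 3 with normexp and quantile normalization (C1qtnf4, H2-K2 and Smtnl1), 7 without the filter on dim probes, 3 with slide as a random block (Emilin3, Fam43b and H2-K2) and 1 at an adjusted p under 0.1. It was 1415 at an unadjusted p under 0.05, and between 7 and 39 when one array was left out, with 39 without EGFP KD replicate 2. Slide as a fixed block gave 0. With the replicate block, which pairs arrays by their number, it stayed at 0 (smallest adjusted p 0.14), the count against Mbd3 KD stayed at 197, and that against the other 4 KDs went from 5 to 1.

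The 197 genes that differed from Mbd3 KD became 128 with quantile normalization, 78 with detection on all 4 arrays, 48 without the floor, 793 with slide as a random block, 0 with the 4 arrays compared alone, 0 without the Tet1 KD and Mbd2 KD arrays, 12 with array weights, 40 with a trended robust prior, and 21 to 89 when one array was left out. The 5 genes that differed from the other 4 KDs became 3 with quantile normalization, 62 without the filter, 3 with detection on all 4 arrays, 0 without the floor, 0 with slide as a fixed block, 131 with slide as a random block, 1 with the KD arrays alone, 3 without the Tet1 KD and Mbd2 KD arrays, 1 with array weights, 2 with a trended robust prior, and 12 to 29 when a Dnmt1 KD array was left out.

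The 238 separated higher genes were 54 at 2-fold, 3238 at any size, 2177 on the same-slide pair alone and 670 to 2811 when one array was left out, the latter without Dnmt1 KD replicate 1. The 56 lower genes were 28 with quantile normalization, 9 with normexp, 122 without the floor, 5 at 2-fold, 2982 at any size, 1580 on the same-slide pair alone and 233 to 3530 when one array was left out. The cause of these shifts was not tested.

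Of 45 named genes, H2-K2 and Fam43b had a limma adjusted p under 0.05 in alternatives with 2 arrays in each group. For H2-K2 these were normexp with quantile normalization and slide as a random block. For Fam43b they were no filter on dim probes and slide as a random block. Hoxb2, Glycam1, Syt16 and Olfr101 were at the floor on EGFP KD replicate 2, as on both Dnmt1 KD arrays. A fit without that control array leaves out the value that showed no difference, so it cannot decide about these genes. Of 255 list medians under alternatives, 186 differed from the median reported by less than the SD of the 2 Dnmt1 KD arrays' medians for that list. Each such SD rests on 2 values. With 2 arrays a group over 3 slides, one of them with no control, slide and KD cannot be fully told apart. Separated genes were mostly dim, so small differences in background weigh on them, and values at the floor have no order.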
